A study of Mus musculus with 16 samples.

Results

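The cytokines of the interleukin-6 (IL-6) family and the STAT3 branch of their signalling were examined in mouse primary cortical neuronal cultures exposed to oxygen-glucose deprivation (OGD), an in vitro model of ischaemia, with or without the antidepressant tianeptine (TIA). The set was 10 genes chosen by name, of 53679 gene symbols with a value: the ligands *Il6*, *Lif* and *Clcf1*, the receptor chains *Osmr*, *Lifr*, *Il6st*, *Il6ra* and *Cntfr*, the transcription factor *Stat3* and its inhibitor *Socs3*. They were found by symbol among 135202 isoforms, 60 of which belong to them, and the FPKM (read fragments scaled by transcript length and library size) of a gene's isoforms were summed. The cultures came from the cortex of wild-type fetal mice at embryonic day 15, and a strain is not given in the sources used here. All received vehicle (DMSO, which the labels call untreated) or 10 µM TIA at day in vitro 8, and 24 h later they underwent 3 h of OGD or a sham procedure, with RNA taken after 6 h of reoxygenation. The 4 groups of 4 cultures were CONTROL-VEH (cultures 1 to 4), CONTROL-TIA (5 to 8), OGD-VEH (9 to 12) and OGD-TIA (13 to 16).

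IL-6 family cytokines share the signal-transducing receptor chain gp130, the product of *Il6st*. Each ligand brings gp130 together with further chains: IL-6 with the IL-6 receptor (*Il6ra*), leukemia inhibitory factor (LIF) with the LIF receptor (*Lifr*), oncostatin M with its own receptor (*Osmr*), and ciliary neurotrophic factor and cardiotrophin-like cytokine (*Clcf1*) with *Cntfr* and *Lifr*. The assembled receptor activates Janus kinases, which phosphorylate STAT3, and STAT3 in the nucleus turns on target genes that include *Socs3*, whose product binds gp130 and shuts the signal off. In the injured brain this pathway is known for its part in the response of astrocytes and for effects on the survival of neurons.

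The labels state that 18000000 to 23000000 reads per sample were aligned, at which 1 read on a transcript of 1 kb is worth 0.0556 to 0.0435 FPKM. No pair of cultures held identical values. The summed FPKM of 9 neuronal markers was 2125 to 2786 in CONTROL-VEH and 1060 to 1977 in OGD-VEH, and that of 9 astrocyte markers 753 to 1614 and 1011 to 2532. Of the OGD cultures, 12 and 16 stood apart by their astrocyte sums (2532 and 1934), where the others had 752 to 1354. Their neuronal sums were the lowest (1060 and 1371), but that of culture 16 was close to cultures 10 and 11 (1509 and 1422). In each control group, too, the last culture by number had the highest astrocyte sum (1614 in culture 4 and 874 in culture 8). The sum of 8 oligodendrocyte-lineage markers was 109 to 123 in CONTROL-VEH and 136, 339, 330 and 455 in OGD-VEH, and 96.6 to 115 in CONTROL-TIA and 125, 163, 139 and 288 in OGD-TIA. In the vehicle arm 3 of the 6 oligodendrocyte-lineage markers that passed the filter described further on were called higher after OGD, and 0 of 8 astrocyte markers. Of all genes tested there, 2.40% were called higher. The oligodendrocyte-lineage list did not move as one, since 1 of the 6 was lower after OGD with a padj of at most 0.05. The defining microglial genes *Cx3cr1* and *Tmem119* reached at most 0.020 and 0.095 FPKM. In these bulk samples fewer cells of a type and less RNA per cell cannot be told apart, and the part of these marker shifts in the values that follow was not tested.

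Among the ligands, *Clcf1* rose after OGD in the vehicle arm. Its summed FPKM in CONTROL-VEH was 0.865, 0.724, 0.656 and 0.249, and in OGD-VEH 2.85, 7.31, 4.83 and 12.04. In CONTROL-TIA it was 1.27, 0.596, 0.611 and 0.521, and in OGD-TIA 1.56, 1.96, 1.54 and 4.42. Every OGD culture lay above every control of the same arm, and the highest value was in culture 12. The means were 0.624 ± 0.264 (SD, n = 4) in CONTROL-VEH and 6.76 ± 3.97 in OGD-VEH, a log2 fold change of 3.15 (SE 0.48, limma, padj = 0.0282), or 8.89-fold. Fold changes are on the scale of log2(FPKM + 0.1), which understates the change of low genes. In the TIA arm the means were 0.749 ± 0.349 and 2.37 ± 1.37, and the log2 fold change of 1.48 (SE 0.39) did not pass the adjustment (padj = 0.140). Without culture 12 the log2 fold change in the vehicle arm was 2.81. Most of the *Clcf1* signal was assigned to an isoform of 3550 bases annotated as a retained intron (67.6% of the total over all cultures), which was 0.249 to 0.865 in CONTROL-VEH and 2.21 to 5.10 in OGD-VEH. The protein-coding isoform was at 0 in all 4 CONTROL-VEH cultures and in cultures 9 and 11 of OGD-VEH, and at 0.376 and 1.25 in cultures 10 and 12. For this isoform alone, which was under the filter, the log2 fold change was 1.50 with padj = 0.231, so the rise was measured on transcripts of the *Clcf1* locus (chr19:4214238-4223490 on GRCm38) that are mostly annotated as non-coding.

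*Lif* (chr11:4257557-4272514), whose cytokine is known to be induced in injured neural tissue, was low and uneven when all 3 isoforms were summed. In CONTROL-VEH it was 0.860, 0.050, 0.806 and 0.162 FPKM, and in OGD-VEH 0.299, 1.57, 0.513 and 2.86. The groups overlapped, and the log2 fold change of 1.29 (SE 0.82) gave padj = 0.291. In CONTROL-VEH its mean of 0.470 was under the expression filter of 0.5 FPKM, so *Lif* entered this test through the OGD cultures. In CONTROL-TIA the values were 0.295, 0.919, 0.071 and 0.072, and in OGD-TIA 0.186, 0.964, 1.054 and 2.22, a log2 fold change of 1.53 (SE 0.78, padj = 0.314). A processed transcript of 390 bases with no coding sequence made up 68.5% of the *Lif* total and was either at 0 or at 0.733 and above. The isoforms annotated as protein coding gave 0.088, 0.050, 0.073 and 0.162 FPKM in CONTROL-VEH against 0.299, 0.624, 0.513 and 0.801 in OGD-VEH, with no overlap. In CONTROL-TIA these isoforms gave 0.295, 0.022, 0.071 and 0.072, and in OGD-TIA 0.186, 0.166, 0.173 and 0.471, which overlap because of the control culture 5. On the protein-coding isoforms, and in a fit with no filter on low values, the log2 fold change of *Lif* was 1.74 in the vehicle arm (limma, padj = 0.0413) and 0.77 in the TIA arm (padj = 0.334).

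*Il6* itself (chr5:30013114-30019981) was at the edge of detection. It was 0.276, 0, 0.042 and 0.087 FPKM in CONTROL-VEH and 0.325, 0.288, 0.096 and 0.228 in OGD-VEH. It was 0.1, 0.042, 0 and 0.053 in CONTROL-TIA and 0.267, 0.223, 0.614 and 0.158 in OGD-TIA. The highest of these values corresponds to about 14 reads at the upper end of the stated depth. The OGD-TIA cultures all lay above the CONTROL-TIA cultures, and the vehicle groups overlapped because of culture 1. *Il6* did not pass the expression filter in any comparison. In a fit with no filter its log2 fold change was 0.85 (SE 0.44, padj = 0.314) in the vehicle arm and 1.41 (SE 0.36, padj = 0.226) in the TIA arm, and averaged over both arms 1.13 (SE 0.29, padj = 0.0226). Without cultures 4, 8, 12 and 16, those with the highest astrocyte sums, the averaged value was 1.25 with padj = 0.0802.

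The promoters of *Il6* and *Lif* are shown because each holds, in the 250 bases before the annotated start, the recognition sequence of AP-1, the dimer of FOS and JUN proteins. The values of *Fos* follow with the STAT3 targets, and a link between *Fos* and either gene was not tested. The sequences are RefSeq's for GRCm38.p6, both from the plus strand, chr5:30012864-30013113 for *Il6* and chr11:4257318-4257556 for *Lif*, the latter ending where an annotated transcript begins. Capitals mark the match to TGANTCA, which starts 249 bases before the RefSeq start of *Il6* and 228 bases before that of *Lif*. The *Lif* isoform that begins at this window was 0.087 to 0.134 FPKM in OGD-VEH. The leading coding isoform of *Lif* (0.212 to 0.667 there) begins at chr11:4267095 and the transcript of 390 bases at chr11:4266796, so the window is not next to their starts.
Il6 promoter: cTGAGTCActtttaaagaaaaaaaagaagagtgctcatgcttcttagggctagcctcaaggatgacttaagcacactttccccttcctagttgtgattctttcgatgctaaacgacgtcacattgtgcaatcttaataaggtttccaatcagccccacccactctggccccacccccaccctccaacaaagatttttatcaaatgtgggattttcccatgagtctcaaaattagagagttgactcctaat
Lif promoter: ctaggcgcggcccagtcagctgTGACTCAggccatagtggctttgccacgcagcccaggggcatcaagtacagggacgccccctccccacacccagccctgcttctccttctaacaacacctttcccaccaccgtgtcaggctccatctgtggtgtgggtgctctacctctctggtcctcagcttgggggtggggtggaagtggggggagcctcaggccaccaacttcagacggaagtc
The letters TGANTCA occur on either strand in 6.75% of 32851 promoters of this length, so a match describes the sequence and does not show that a factor binds there. RefSeq entries were found for 9 of the 10 members, and the windows of the others held no match to TGANTCA.

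**Figure D1:**
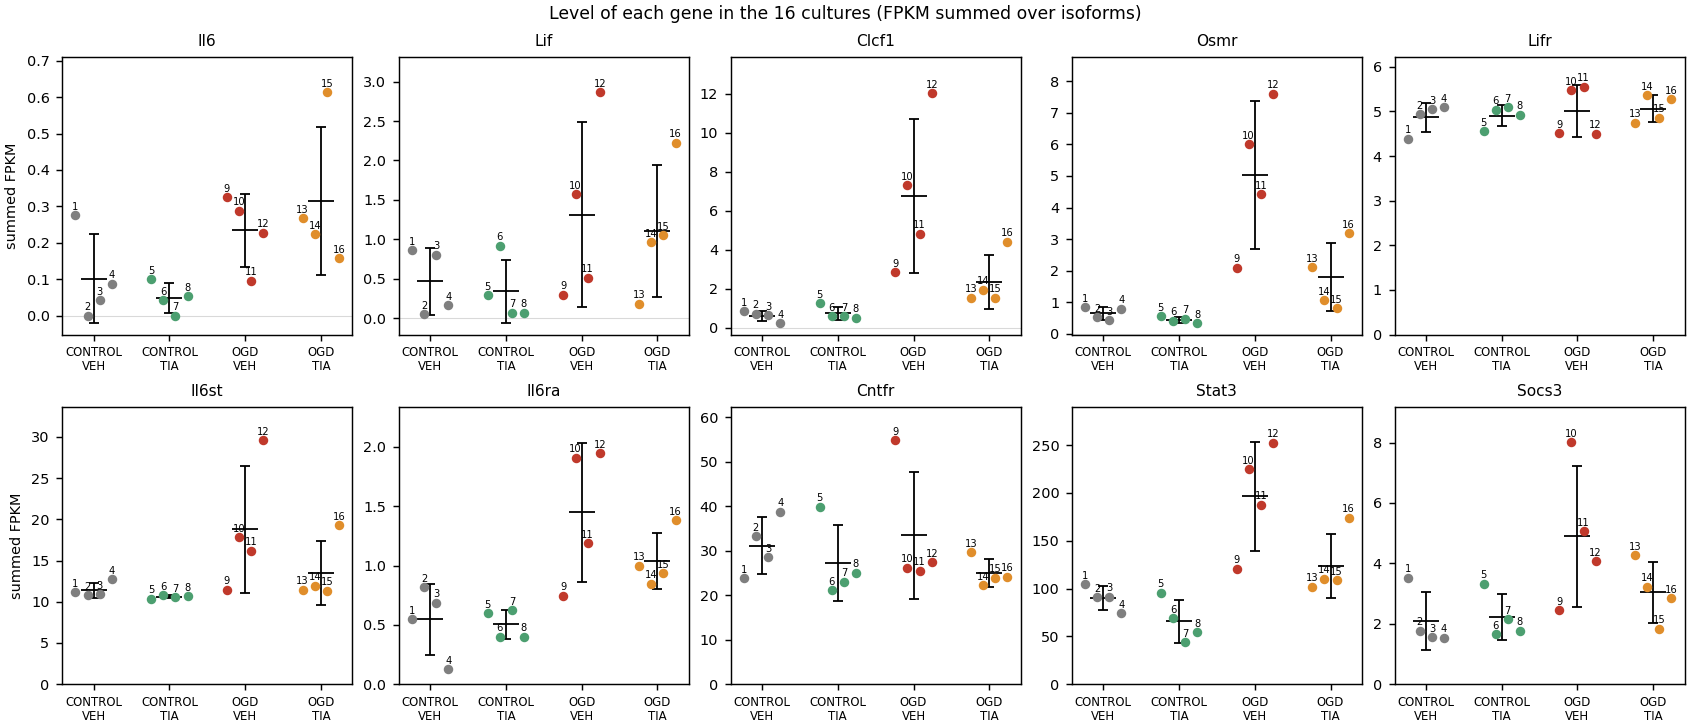
Summed FPKM (vertical axes, linear) of the 10 genes in the 16 cultures. Points are cultures with their numbers, and black marks are the mean and SD of each group (n = 4). The *Clcf1*, *Osmr* and *Stat3* values of all 8 OGD cultures lie above those of the 4 controls of the same arm, whereas *Lifr* stays between 4.38 and 5.55 in every culture.

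*Osmr* (chr15:6813577-6874969), the chain that makes gp130 a receptor for oncostatin M, was the receptor gene of the set that passed the adjusted test in the vehicle arm. In CONTROL-VEH it was 0.831, 0.524, 0.425 and 0.790 FPKM, and in OGD-VEH 2.09, 6.01, 4.42 and 7.61. In CONTROL-TIA it was 0.558, 0.407, 0.472 and 0.336, and in OGD-TIA 2.10, 1.06, 0.811 and 3.19. The groups did not overlap in either arm, and in the TIA arm the margin was between 0.558 and 0.811. The log2 fold change was 2.69 (SE 0.40, padj = 0.0282), or 6.44-fold, in the vehicle arm and 1.63 (SE 0.41, padj = 0.130), or 3.10-fold, in the TIA arm. The main protein-coding isoform of 5491 bases carried 57.5% of the *Osmr* total and separated in the same way, at 0.203 to 0.612 in CONTROL-VEH and 1.01 to 4.65 in OGD-VEH. It was 0.200 to 0.397 in CONTROL-TIA and 0.728 to 2.03 in OGD-TIA. On protein-coding isoforms alone the log2 fold change in the vehicle arm was 2.32 (padj = 0.0358). *Osmr* entered that test through the OGD cultures, with a CONTROL-VEH mean of 0.414 FPKM. The cognate ligand *Osm* was at 0 in 12 of the 16 cultures and at most 0.044 FPKM in the others.

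The common chain *Il6st* (chr13:112464070-112510086) and the IL-6 receptor *Il6ra* (chr3:89864059-89913196) were higher in most OGD cultures, without passing the adjusted test in either arm. *Il6st* was 11.2, 10.8, 10.9 and 12.7 FPKM in CONTROL-VEH and 11.5, 17.8, 16.2 and 29.6 in OGD-VEH, so that culture 9 lay within the control range. The log2 fold change was 0.63 (SE 0.26, padj = 0.122). In CONTROL-TIA *Il6st* was 10.4, 10.8, 10.5 and 10.7, and in OGD-TIA 11.4, 11.96, 11.3 and 19.3. These groups did not overlap, but apart from culture 16 they lay close together, and the log2 fold change was 0.31 (SE 0.17, padj = 0.357). *Il6ra* was 0.549, 0.818, 0.688 and 0.127 in CONTROL-VEH and 0.744, 1.91, 1.19 and 1.95 in OGD-VEH, a log2 fold change of 1.35 (SE 0.51, padj = 0.102). It was 0.598, 0.400, 0.622 and 0.400 in CONTROL-TIA and 1, 0.846, 0.935 and 1.38 in OGD-TIA, with no overlap and a log2 fold change of 0.92 (SE 0.25, padj = 0.144). Both isoforms of *Il6ra* are annotated as protein coding, so its values hold no non-coding part.

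The receptor chains *Lifr* (chr15:7090614-7197489) and *Cntfr* (chr4:41657498-41697089) did not differ detectably after OGD. *Lifr* was 4.38, 4.93, 5.05 and 5.10 FPKM in CONTROL-VEH and 4.52, 5.47, 5.55 and 4.499 in OGD-VEH. Its log2 fold change was 0.04, with a 95% confidence interval (CI) of -0.28 to 0.36, and in the TIA arm 0.04 (95% CI -0.18 to 0.27). *Cntfr*, which binds ciliary neurotrophic factor and, in FPKM, had the highest level after *Stat3* among the 10 genes in CONTROL-VEH, was 23.8, 33.3, 28.6 and 38.8 there and 54.9, 26.2, 25.5 and 27.5 in OGD-VEH. The log2 fold change was 0.05 (95% CI -0.57 to 0.66), and without culture 9 it was -0.22. In the TIA arm it was -0.09 (95% CI -0.55 to 0.38). The main coding isoform of *Cntfr* (1926 bases) was steadier, at 13.6 to 17.3 in CONTROL-VEH and 16.2 to 19.1 in OGD-VEH.

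*Stat3* (chr11:100885098-100939540), which carries the signal to the nucleus, rose in the vehicle arm. Its summed FPKM was 105, 91.0, 91.4 and 74.1 in CONTROL-VEH and 121, 225, 188 and 252 in OGD-VEH. It was 95.7, 68.7, 43.7 and 54.0 in CONTROL-TIA and 102, 110, 109 and 174 in OGD-TIA. The groups did not overlap in either arm. The log2 fold change was 1.08 (SE 0.23, padj = 0.0373) with vehicle and 0.94 (SE 0.26, padj = 0.146) with TIA. An isoform of 396 bases annotated as a retained intron carried 50.8% of this sum, and all protein-coding isoforms together 13.7%, where FPKM divides by length and a read on a short isoform counts for more. The main protein-coding isoform of 4516 bases was 11.3 to 12.3 FPKM in CONTROL-VEH, 10.8 to 12.2 in CONTROL-TIA, 15.2 to 32.3 in OGD-VEH and 12.6 to 19.7 in OGD-TIA. This isoform hardly varied among the 8 controls, and each OGD culture exceeded all of them. With protein-coding isoforms alone the log2 fold change was 0.97 (padj = 0.0359) in the vehicle arm, just under the fold limit of 1, and 0.39 (padj = 0.159) in the TIA arm.

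*Socs3* (chr11:117966079-117970047), the feedback inhibitor of gp130 signalling, passed the test in the vehicle arm on its coding isoform and not on the sum of its isoforms. Summed over isoforms it was 3.52, 1.77, 1.56 and 1.54 FPKM in CONTROL-VEH and 2.46, 8.01, 5.07 and 4.08 in OGD-VEH, a log2 fold change of 1.15 (SE 0.39, padj = 0.0819). Culture 1 overlapped with the OGD cultures because a processed transcript of 490 bases was at 2.23 in it. The coding isoform of 2552 bases was 1.29, 1.45, 1.56 and 1.54 in CONTROL-VEH and 2.07, 4.26, 3.25 and 4.08 in OGD-VEH, without overlap, and its log2 fold change was 1.12 (padj = 0.0359). In the TIA arm the coding isoform was 1.27, 1.65, 1.82 and 1.48 in the controls and 1.97, 2.09, 1.53 and 2.84 after OGD, which overlap, with a log2 fold change of 0.40 (padj = 0.278). Summed over isoforms, the TIA arm gave 3.33, 1.65, 2.16 and 1.77 in the controls and 4.27, 3.23, 1.84 and 2.84 after OGD, a log2 fold change of 0.43 (SE 0.30, padj = 0.445). The difference between the arms did not pass the interaction test given further on.

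The promoter of *Socs3* is shown because it held the only match, among the members' windows, to the STAT recognition sequence TTCNNNGAA. It lies at chr11:117969367-117969616 (GRCm38.p6, minus strand, from RefSeq), within the locus as GENCODE draws it, ends at the RefSeq start and carries the match, in capitals, 154 bases before it.
Socs3 promoter: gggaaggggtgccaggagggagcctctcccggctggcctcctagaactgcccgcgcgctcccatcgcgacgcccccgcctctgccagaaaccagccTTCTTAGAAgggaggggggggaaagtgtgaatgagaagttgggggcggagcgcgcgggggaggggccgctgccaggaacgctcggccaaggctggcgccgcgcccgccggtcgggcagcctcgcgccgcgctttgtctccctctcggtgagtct
The fixed letters read the same on both strands, and 7.02% of the 32851 promoters hold them. A window without a match says only that these letters are not within it.

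**Figure D2:**
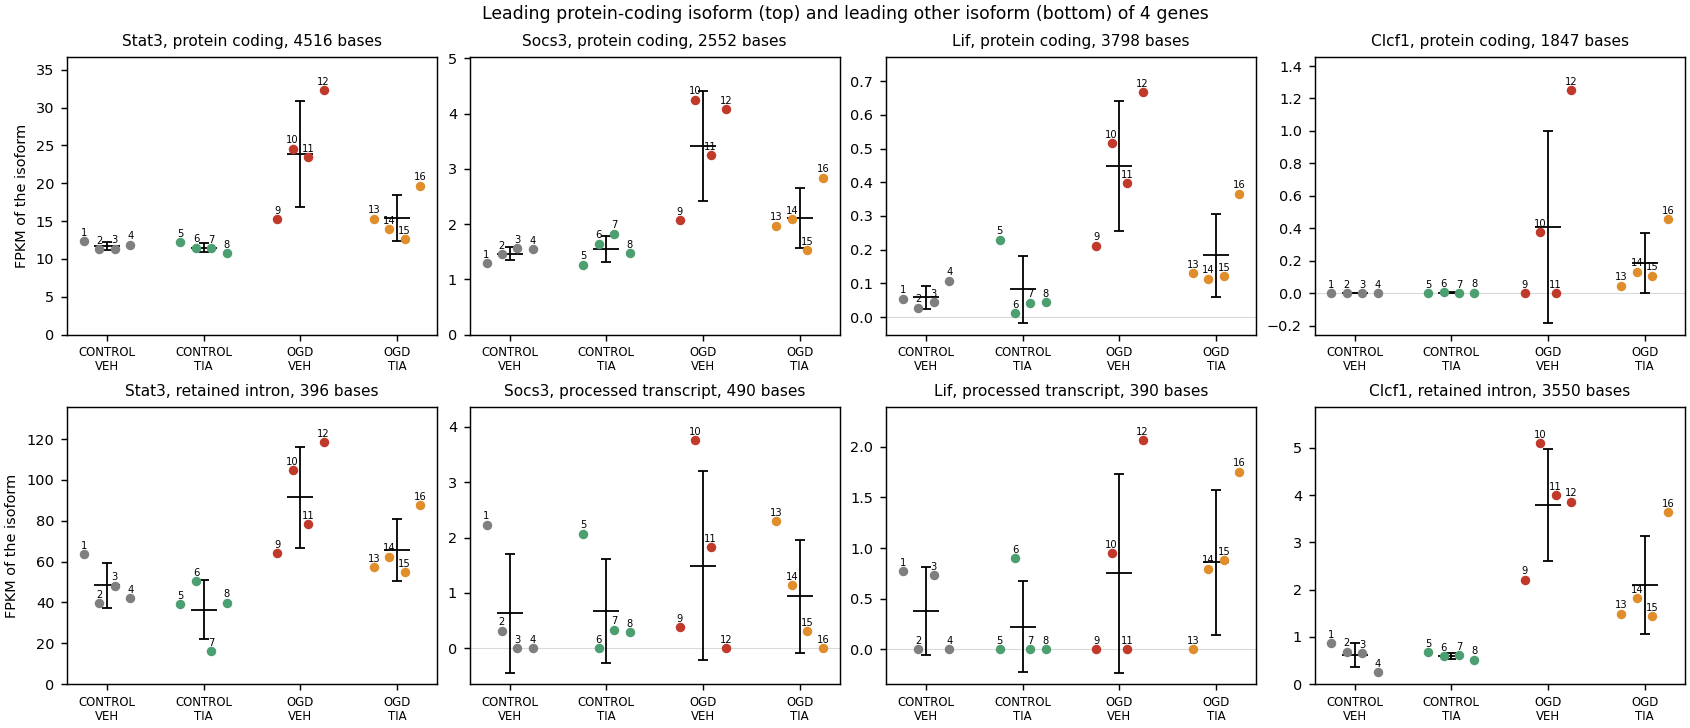
FPKM (vertical axes, linear) of the leading protein-coding isoform (top row) and of the leading other isoform (bottom row) of *Stat3*, *Socs3*, *Lif* and *Clcf1* in the 16 cultures, with the mean and SD of each group (n = 4). Lower SD bars may extend below 0, which FPKM cannot. The coding isoform of *Stat3* lies between 10.8 and 12.3 in all 8 controls, and the short *Socs3* and *Lif* transcripts are at or near 0 in several cultures of each condition.

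For the set as a whole, a differentially expressed gene (DEG) had to reach padj = 0.05 or lower together with a log2 fold change of 1 or more in either direction. In OGD-VEH against CONTROL-VEH, 3 of the 9 members that passed the filter were DEGs (*Clcf1*, *Osmr* and *Stat3*), all higher after OGD, where 4.09% of the 16346 genes tested were DEGs and 2.40% were DEGs with higher values. An unadjusted p under 0.05 was found for 6 members and for 35.0% of genes. The median log2 fold change of the 9 members was 1.15, and that of all genes tested 0.10. Of the 9, *Lif*, with a CONTROL-VEH mean of 0.470 FPKM, entered through the OGD cultures. All 4 OGD-VEH values lay above all 4 CONTROL-VEH values for these 3 of the 9, as they did for 12.7% of the genes tested. On protein-coding isoforms alone this held for 3 of the 7 members that passed the filter (*Osmr*, *Stat3* and *Socs3*) and for 15.4% of the 12929 genes that did. *Lif* also separated there, under the filter, and *Osmr* passed it only through the OGD cultures, with a CONTROL-VEH mean of 0.414 FPKM on these isoforms. The two-sided exact permutation test gave the smallest p it can reach with 4 cultures against 4, 0.0286, for each of the 3, and 0.127 after adjustment over the 40 member tests. These calls were fragile: leaving out any single culture of CONTROL-VEH, or culture 10 or 11, left 0 members called, leaving out culture 12 left 1, and leaving out culture 9 gave 4. The number of DEGs among all genes moved along, from 668 to between 1 and 2186, while the log2 fold changes stayed between 2.81 and 3.49 for *Clcf1*, 2.44 and 3.05 for *Osmr*, and 0.94 and 1.29 for *Stat3*.

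The calls in the vehicle arm also moved with the way the values were fitted. Without cultures 4 and 12, those with the highest astrocyte sum of their groups, 0 members were called, where 0.0122% of genes were, with log2 fold changes of 2.50 for *Clcf1* (padj = 0.0749), 2.54 for *Osmr* (padj = 0.0811) and 0.85 for *Stat3* (padj = 0.0975). With median-ratio scaling *Stat3* was at 0.995, under the fold limit. With no filter on low values 0 members were called, where 0.111% of genes were. *Clcf1*, *Osmr*, *Stat3*, *Il6ra* and *Socs3* were called, 5 members, in each of 3 other fits: with weights for the quality of each culture (11.8% of genes), with isoforms weighted by length (6.38%) and with all 16 cultures in the fit (8.52%). On protein-coding isoforms alone 2 members that passed the filter were called (*Osmr* and *Socs3*), where 6.28% of genes were. *Osmr* had a mean of 0.414 FPKM on these isoforms in CONTROL-VEH and entered this test through the OGD cultures. Both this setting and the one without cultures 4 and 12 were added after seeing the data.

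In OGD-TIA against CONTROL-TIA none of the members was a DEG, nor was any of the 16242 genes tested (0.00%), although 19.5% of them had an unadjusted p under 0.05, among them *Clcf1*, *Osmr*, *Il6ra* and *Stat3*. The study, which used DESeq2, reported DEGs for this comparison at the same limits, so the 0 holds for the fit used here. It also reported more DEGs in the vehicle arm than were found here. The median log2 fold change was 0.92 for the 9 members that passed the filter and 0.04 for all genes, and *Lif* and *Osmr*, with CONTROL-TIA means under 0.5 FPKM, entered through the OGD cultures. Groups did not overlap for 5 of the 9, *Clcf1*, *Osmr*, *Il6st*, *Il6ra* and *Stat3*, all with higher values after OGD, as for 9.51% of the 16242 genes. *Il6*, under the filter, was separated as well. On protein-coding isoforms alone 4 of the 7 members that passed the filter were separated (*Osmr*, *Il6st*, *Il6ra* and *Stat3*), as were 12.2% of the genes that passed it. There too *Osmr* passed only through the OGD cultures, with a CONTROL-TIA mean of 0.316 FPKM. The exact permutation test on summed values again gave 0.0286 for each of the 5 and for *Il6*, and 0.127 after adjustment.

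Averaged over both arms, with all 16 cultures in the fit, OGD raised 4 of the 9 members past the DEG limits, where 4.80% of 16313 genes were DEGs and 2.79% were DEGs with higher values. The log2 fold changes were 2.32 for *Clcf1* (SE 0.33, padj = 0.00094), 2.16 for *Osmr* (SE 0.30, padj = 0.00094), 1.13 for *Il6ra* (SE 0.29, padj = 0.0103) and 1.01 for *Stat3* (SE 0.18, padj = 0.0023). *Socs3* (0.79, SE 0.26, padj = 0.0313) and *Il6st* (0.47, SE 0.16, padj = 0.0392) also rose, by less than the fold limit, in a comparison in which 32.5% of all genes had a padj of at most 0.05. *Lif* was at 1.41 (SE 0.60, padj = 0.0844), *Lifr* at 0.04 and *Cntfr* at -0.02. With means of 0.470 FPKM in CONTROL-VEH and 0.339 in CONTROL-TIA, *Lif* entered this test through the OGD cultures. This comparison uses the same cultures as the separate arms and is no independent evidence. Without cultures 12 and 16 the log2 fold changes were 1.98 for *Clcf1* (padj = 0.00214), 1.87 for *Osmr* (padj = 0.0022), 0.98 for *Il6ra* (padj = 0.0403) and 0.85 for *Stat3* (padj = 0.0072), so that 2 members kept the call, where 2.45% of genes were called. Without cultures 4, 8, 12 and 16 the same 2 were called, where 2.47% of genes were, with *Il6ra* at 0.72 (padj = 0.0468) and *Stat3* at 0.77 (padj = 0.0230). These settings were added after seeing the data. *Stat3* also fell under the fold limit with median-ratio scaling (0.95), and *Il6ra* with 1 added before log2 (0.54). With quality weights 2 members were called (*Clcf1* and *Osmr*, against 4.95% of genes), and on protein-coding isoforms alone 2 members that passed the filter (*Osmr* and *Il6ra*, against 4.30%). On these isoforms *Osmr* had means of 0.414 FPKM in CONTROL-VEH and 0.316 in CONTROL-TIA, so it entered this test through the OGD cultures.

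Among the OGD cultures the highest and lowest values of many members fell in the same cultures. Culture 12 had the highest astrocyte and oligodendrocyte-lineage sums and the lowest neuronal sum. It held the highest value of the 8 OGD cultures for 6 of the 10 members (*Lif*, *Clcf1*, *Osmr*, *Il6st*, *Il6ra* and *Stat3*), and culture 15 the lowest for 4 (*Clcf1*, *Osmr*, *Il6st* and *Socs3*). Culture 4 had the highest astrocyte sum of the controls, 1614, above those of OGD cultures 9, 10 and 11, and its *Clcf1* (0.249) and *Stat3* (74.1) were the lowest of CONTROL-VEH. Its *Osmr*, 0.790, was also below that of every OGD culture. Its *Il6st* (12.7) and its *Osmr* on protein-coding isoforms (0.613), however, were the highest of the 8 controls. Culture 4 also had the highest neuronal sum of the 16 cultures, 2786, where OGD cultures 9, 10 and 11 had 1977, 1509 and 1422. Not every astrocyte marker was high in culture 4, since *Aldh1l1* was at 60.6 FPKM, the lowest of the 16. The part of cell composition in the members' values was not tested. *Cntfr* did not follow this order, since its highest value was in culture 9.

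**Figure D3:**
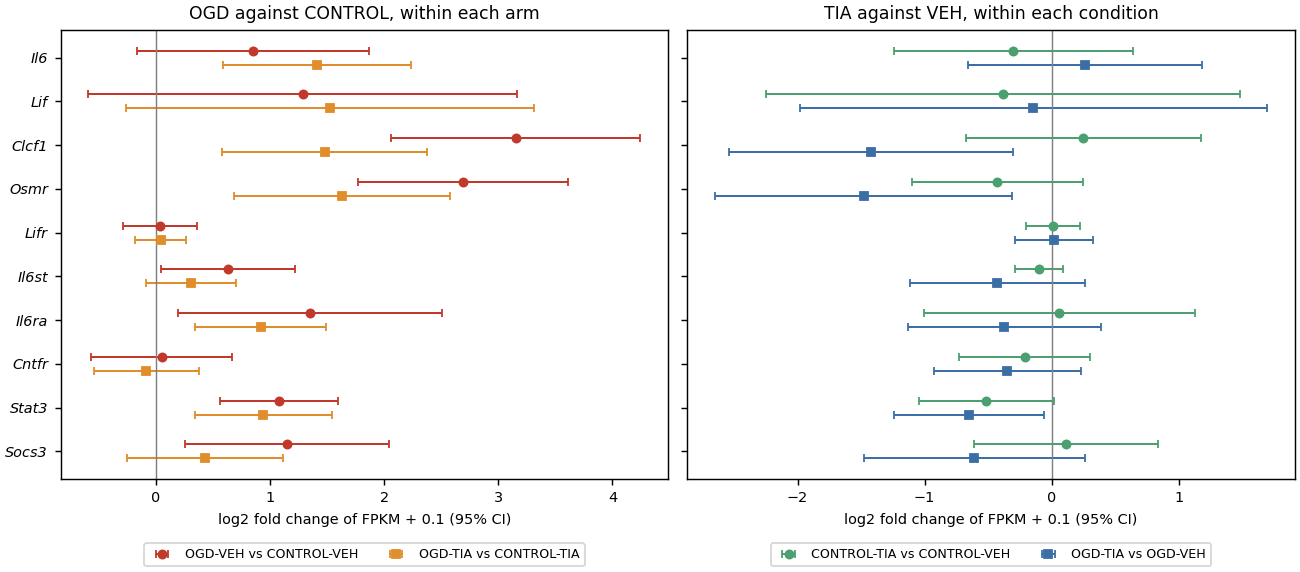
Log2 fold change of summed FPKM + 0.1 (horizontal axes) with its 95% CI from limma for the 10 genes, n = 4 cultures per group. The left panel compares OGD with CONTROL within the vehicle and TIA arms, the right panel TIA with vehicle within CONTROL and OGD. In the left panel *Clcf1* and *Osmr* lie farthest to the right in the vehicle arm (3.15 and 2.69), and in the right panel the OGD estimates for *Clcf1* and *Osmr* are -1.42 and -1.48.

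The effect of TIA was compared in cultures with and without OGD. Without OGD no member was a DEG, nor was any of the 16170 genes tested (0.00%, while 3.84% had an unadjusted p under 0.05, none of them a member). Of the 8 members that passed the filter, the log2 fold changes ran from -0.51 for *Stat3* (SE 0.23, padj = 0.999) to 0.25 for *Clcf1* (SE 0.40, padj = 0.999). The coding isoform of *Stat3* did not share the lower level, with 11.7 ± 0.493 FPKM in CONTROL-VEH and 11.5 ± 0.603 in CONTROL-TIA (SD, n = 4).

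In OGD-TIA against OGD-VEH no member was a DEG either, nor was any of 16351 genes (0.00%, while 7.91% had an unadjusted p under 0.05). The 3 members with an unadjusted p under 0.05 were *Osmr*, *Clcf1* and *Stat3*. *Osmr* had a mean of 5.03 ± 2.35 in OGD-VEH and 1.79 ± 1.08 in OGD-TIA, a log2 fold change of -1.48 (SE 0.51, padj = 0.551). *Clcf1* was at -1.42 (SE 0.49, padj = 0.551) and *Stat3* at -0.65 (SE 0.26, padj = 0.551), with unadjusted limma p of 0.0192, 0.0186 and 0.0352. The groups overlapped for every member. The OGD-TIA culture 16 reached 3.19 for *Osmr* and 4.42 for *Clcf1*, above the OGD-VEH culture 9 at 2.09 and 2.85. The marker sums moved as well, with neuronal sums of 1060 to 1977 in OGD-VEH and 1371 to 2243 in OGD-TIA and astrocyte sums of 1011 to 2532 and 752 to 1934 and oligodendrocyte-lineage sums of 136 to 455 and 125 to 288, and their part in these differences was not tested. With weights for the quality of each culture, *Osmr* (-1.90, padj = 0.0454) and *Clcf1* (-1.63, padj = 0.0453) passed the DEG limits, where 2.50% of genes did. Of the other 6 members that passed the filter, *Lifr* was at 0.02 and the rest lay between -0.61 (*Socs3*) and -0.14 (*Lif*).

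Whether the OGD effect differed between the arms was tested by the interaction, the log2 fold change in the TIA arm minus that in the vehicle arm. It was -1.67 for *Clcf1* (SE 0.65, unadjusted p = 0.0220, padj = 0.722), -1.05 for *Osmr* (SE 0.60, padj = 0.722), -0.72 for *Socs3* (SE 0.52, padj = 0.723) and -0.14 for *Stat3* (SE 0.37, padj = 0.919). No member and no other gene of 16313 passed (0.00%, while 6.06% had an unadjusted p under 0.05). The smaller fold changes of *Clcf1*, *Osmr* and *Socs3* with TIA are therefore not shown to differ from those with vehicle. The intervals are wide: for *Osmr* the 95% CI of the interaction ran from -2.33 to 0.22. The value of -0.14 for *Stat3* is on summed isoforms, of which the protein-coding ones made up 13.7%. The mean of its main protein-coding isoform went from 11.7 to 23.9 FPKM with vehicle and from 11.5 to 15.4 with TIA. This smaller rise with TIA is not seen in the *Stat3* sum, and the interaction above does not test that isoform alone.

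The other genes of the pathway were taken from a list of 52 further ligands, receptors, kinases, regulators and targets. Of 8 other ligands 4 passed the filter and none changed in either arm. *Cntf*, ciliary neurotrophic factor, was at a mean of 1.42 FPKM in CONTROL-VEH and 2.60 in OGD-VEH (log2 fold change 0.47, SE 0.60, padj = 0.603). *Il11* was at most 0.678 FPKM and *Il27* at 0 in all cultures.

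None of the 6 other kinases and STATs that passed the filter was a DEG. The log2 fold changes in the vehicle arm were -0.22 for *Jak1* (SE 0.12, padj = 0.222), 0.24 for *Jak2* (SE 0.13, padj = 0.218) and 0.13 for *Tyk2* (SE 0.13, padj = 0.482). Of the 14 further negative regulators that passed the filter, none was a DEG in the vehicle arm. Averaged over both arms, where 4.80% of genes were DEGs, *Cish* (-1.46, SE 0.50, padj = 0.0391) and *Socs2* (-1.01, SE 0.36, padj = 0.0433) fell. Both encode inhibitors of cytokine receptors that use STAT5, and they moved opposite to *Socs3*. *Cish* was 34.7, 5.72, 5.68 and 3.50 FPKM in OGD-VEH against 21.7 to 64.0 in CONTROL-VEH, so that culture 9 was at the control level. Neither call held without cultures 12 and 16, where the log2 fold changes were -0.90 for *Cish* (padj = 0.111) and -0.64 for *Socs2* (padj = 0.155). *Socs1* had a log2 fold change of 0.62 over both arms (SE 0.20, padj = 0.0274). In that comparison 4 of the 14 regulators were higher and 2 lower with a padj of at most 0.05, which 32.5% of all genes had.

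The list held 17 known targets of STAT3 that passed the filter in the vehicle arm, where 2.40% of genes were DEGs with higher values. Of these targets 5 were DEGs, all higher. They were *Timp1*, an inhibitor of matrix metalloproteinases (4.13, SE 0.61, padj = 0.0281), *Serpina3n*, a secreted protease inhibitor of reactive astrocytes (2.23, SE 0.38, padj = 0.0336), *Fos*, an immediate-early gene (2.12, SE 0.44, padj = 0.0371), and the transcription factors *Cebpd* (2.04, SE 0.39, padj = 0.034) and *Cebpb* (1.17, SE 0.27, padj = 0.0421). *Timp1* and *Cebpd*, with CONTROL-VEH means of 0.337 and 0.247 FPKM, were under the filter there and entered the test through the OGD cultures. Of the 14 targets with a mean of 0.5 FPKM or more in both groups, 3 were DEGs and 6 had a padj of at most 0.05, where 8.44% of all genes tested did. All 5 calls were lost with no filter on low values (padj 0.0593 to 0.0863) and without cultures 4 and 12 (padj 0.0625 to 0.0980). *Timp1* was 0.522, 0.299, 0.525 and 0 FPKM in CONTROL-VEH and 3.78, 7.18, 4.93 and 10.2 in OGD-VEH, and in the TIA arm 0.272 to 0.585 and 1.44 to 4.42. *Fos* was 1.99, 1.68, 2.35 and 3.89 in CONTROL-VEH, 5.08, 23.2, 10.4 and 10.1 in OGD-VEH and 2.95 to 5.83 in OGD-TIA. Averaged over both arms 5 of the 16 targets that passed the filter were DEGs, all higher, where 2.79% of genes were DEGs with higher values. They were *Timp1* (3.30), *Serpina3n* (1.85), *Cebpd* (1.57), *Fos* (1.49) and *Il4ra* (1.22, padj = 0.0300). *Timp1* and *Cebpd*, with CONTROL-TIA means of 0.40 and 0.23 FPKM, entered this test through the OGD cultures as well. Without cultures 12 and 16 *Il4ra* was at 0.73 (padj = 0.0638). *Cebpb* had a log2 fold change of 0.95 over both arms (padj = 0.00188). In OGD-TIA against CONTROL-TIA no target was a DEG, the smallest padj being 0.0741 for *Timp1* (2.47), and the interaction was not past the test for any of them. In the vehicle arm each of the 5 lost its call in 6 or 7 of the 8 fits with 1 culture left out, and *Timp1* was at 3.53 or above in all of them. Many of these genes are targets of other factors as well, and *Gfap* belongs to the astrocyte list too.

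**Figure D4:**
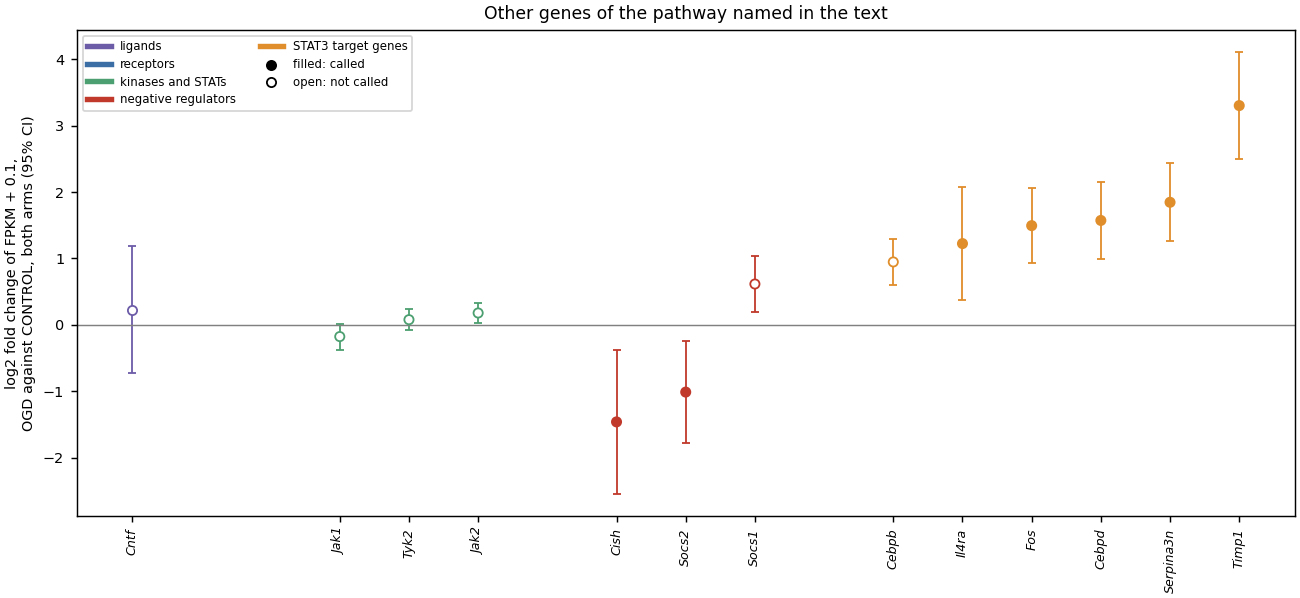
Log2 fold change of summed FPKM + 0.1, OGD against CONTROL averaged over both arms (vertical axis), with its 95% CI for 13 other pathway genes whose values are given in the text, ordered by role. Filled points are DEGs, and all 16 cultures were in the fit. The DEGs are 5 STAT3 targets with higher values, from *Il4ra* at 1.22 to *Timp1* at 3.30, and the negative regulators *Cish* (-1.46) and *Socs2* (-1.01) with lower values.

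The genes whose levels were most like those of 3 members over the 16 cultures were listed by Pearson's r of log2 values among 13219 genes annotated as protein coding, as a description only, since all points share the contrast of OGD with control. For *Osmr* these were *2810004N23Rik* (0.98), *D8Ertd738e* (0.98), *Fbxo38* (0.98), *Ubxn1* (0.98) and *Atp6v0e* (0.97), and 533 genes reached 0.9. For *Socs3* they were *Prmt1* (0.93), *Lin54* (0.91), *Gnl3* (0.89), *Zfp593* (0.89) and *Dclre1c* (0.89), with 2 genes at 0.9 or above. For *Lif* they included *Acvr2b* (0.87), *Rtkn2* (0.85), *Plscr1* (0.83) and *Nadk2* (0.83), and no gene reached 0.9. Neither *Osmr* nor *Socs3* nor *Lif* had another member of the set among its 5.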

How the data were processed

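The 16 cultures and their groups were taken from the sample labels. Per the labels and the study's methods, strand-specific mRNA libraries were read at 1 end over 50 bases, STAR aligned the reads (GRCm38, Ensembl 92) and eXpress estimated isoform abundance. The deposited values, made by the authors, are FPKM per isoform after TMM scaling, as the file is named, not counts, so the study's DESeq2 was not applied. Of 135276 lines, 74 without an identifier were left out. Isoform types and positions came from GENCODE M21 (99.8% of isoforms matched), promoters from RefSeq. Reads are split between overlapping isoforms by probability, which makes short isoforms uncertain.

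FPKM were summed per symbol and 0.1 was added before log2. Only genes averaging 0.5 FPKM or more over the compared cultures were tested with limma 3.58.1 in R 4.3.3 (empirical Bayes with trend), with Benjamini-Hochberg adjustment over all genes. A pair of groups used its 8 cultures, and the averaged OGD effect and the interaction all 16. Members under the filter were read from the same fit without it. Exact permutation tests used the 70 assignments of 8 cultures. The procedure was tested on simulated data. Alternatives were a pseudocount of 1, no filter, median-ratio scaling, quality weights, isoforms weighted by length, all cultures in 1 fit, and each culture left out in turn. The members and lists were chosen with earlier results of these data known. The named genes were all members, other pathway genes called in the vehicle arm or over both arms (at most 8 by size), 10 further pathway genes whatever their values, and the 5 genes most like *Lif*, *Osmr* and *Socs3*. Some genes that these rules name are not reported here. Others (*Il27*, *Cx3cr1*, *Tmem119*, *Gfap*, *Aldh1l1*) were named after their values were seen. Figures were drawn with matplotlib 3.10.9.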

Additional observations from a re-analysis of the deposited data

Results flagged for a closer look

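In each of the 10 genes and 4 groups, the highest or lowest culture was compared with the range of its group by Dixon's criterion for 4 values. Of these 40 sets of values 4 held a culture far from the others, where chance gives about 1 in 20. The level of *Il6st* was 19.3 FPKM in OGD-TIA culture 16, with the other 3 at 11.3 to 11.96. That of *Stat3* was 174 in the same culture, with the others at 102 to 110. Culture 16 also had the highest astrocyte marker sum of its group (1934, others 752 to 901). *Cntfr* was at 54.9 in OGD-VEH culture 9, with the others at 25.5 to 27.5, and an isoform of 410 bases was at 32.5 in that culture. *Socs3* was at 3.52 in CONTROL-VEH culture 1, with the others at 1.54 to 1.77, and its coding isoform was the lowest of the group there, at 1.29.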

How the results depend on the processing

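The number of DEGs in OGD-VEH against CONTROL-VEH was 668. It was 36 with no filter on low values, 1929 with quality weights, 1024 with isoforms weighted by length and 1390 with all 16 cultures in the fit. The corresponding numbers of members called were 3, and 0, 5, 5 and 5 in these settings. Without cultures 4 and 12 there were 2 DEGs and 0 members. Leaving out 1 culture at a time gave 1 to 2186 DEGs and 0 to 4 members, with 2186 DEGs without culture 9 and 71 without culture 12. In OGD-TIA against CONTROL-TIA, where 0 genes were DEGs, there were 7 with no filter, 80 with quality weights, 53 with isoforms weighted by length, 1 with all 16 cultures, 1 on protein-coding isoforms, and 0 to 16 when 1 culture was left out (16 without culture 16). CONTROL-TIA against CONTROL-VEH gave 4 DEGs with no filter and 0 in every leave-one-out fit. OGD-TIA against OGD-VEH gave 4 with no filter, 408 with quality weights (2 members) and 0 to 2 in leave-one-out fits. The averaged OGD comparison gave 783 DEGs, and 393 with 1 added before log2 in place of 0.1, 519 with isoforms weighted by length, 398 without cultures 12 and 16, 402 without cultures 4, 8, 12 and 16, and 548 to 1159 in leave-one-out fits. It called 4 members, and 2 with quality weights, 2 on protein-coding isoforms, 2 without cultures 12 and 16 or without cultures 4, 8, 12 and 16, and 2 to 5 in leave-one-out fits. The interaction gave 3 DEGs with no filter, 101 with quality weights, 1 on protein-coding isoforms and 0 to 1 in leave-one-out fits. The cause of these shifts was not tested.

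Of the members' log2 fold changes under other settings, 431 kept direction and side of the limits, 22 fell below them, 12 came to pass them and 25 changed sign, none of them among called values. Those that changed sign in OGD-VEH against CONTROL-VEH were *Lifr* (-0.044) and *Cntfr* (-0.033) with median-ratio scaling, and *Cntfr* (-0.097) with quality weights. In OGD-TIA against CONTROL-TIA it was *Cntfr* (0.014) with isoforms weighted by length. In CONTROL-TIA against CONTROL-VEH they were *Il6ra* (-0.019) with 1 added, *Clcf1* (-0.019), *Il6ra* (-0.24) and *Socs3* (-0.019) with quality weights, *Lifr* (-0.0079) with isoforms weighted by length, *Lif* (0.037) and *Lifr* (-0.0016) on protein-coding isoforms, and *Il6ra* (-0.30) without cultures 4 and 8. In OGD-TIA against OGD-VEH they were *Lifr* with quality weights (-0.079) and in both settings without cultures 12 and 16 (-0.049). In the averaged comparison they were *Lifr* (-0.019) with median-ratio scaling, and *Cntfr* with isoforms weighted by length (0.046), without cultures 12 and 16 (0.023) and without cultures 4, 8, 12 and 16 (0.066). In the interaction they were *Lifr* (-0.12) and *Cntfr* (0.043) with quality weights, *Lifr* without cultures 12 and 16 (-0.061) and without cultures 4, 8, 12 and 16 (-0.081), and *Lif* with isoforms weighted by length (-0.74) and on protein-coding isoforms (-0.97).

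Of 15 other pathway genes, *Tyk2* in OGD-VEH against CONTROL-VEH changed sign on protein-coding isoforms (-0.053), and *Cntf* in the averaged comparison without cultures 12 and 16 (-0.25), without cultures 4, 8, 12 and 16 (-0.41) and without culture 16 alone (leave-one-out range -0.041 to 0.55). The averaged calls of *Cish*, *Socs2* and *Il4ra* were lost in 10, 11 and 7 of 16 leave-one-out fits.

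Leave-one-out fits changed the sign of 52 member values. The ranges were, for OGD-VEH against CONTROL-VEH, -0.014 to 0.085 for *Lifr* and -0.22 to 0.16 for *Cntfr*, and for OGD-TIA against CONTROL-TIA -0.19 to 0.11 for *Cntfr*. For CONTROL-TIA against CONTROL-VEH they were -0.068 to 0.42 for *Clcf1*, -0.58 to 0.060 for *Il6*, -0.38 to 0.29 for *Il6ra*, -0.92 to 0.0038 for *Lif*, -0.036 to 0.047 for *Lifr* and -0.092 to 0.38 for *Socs3*. For OGD-TIA against OGD-VEH they were -0.037 to 0.45 for *Il6*, -0.61 to 0.43 for *Lif* and -0.029 to 0.070 for *Lifr*. For the averaged comparison *Cntfr* ran from -0.15 to 0.080. For the interaction they were -0.25 to 0.13 for *Cntfr*, -0.69 to 0.012 for *Il6ra*, -0.23 to 0.82 for *Lif*, -0.042 to 0.057 for *Lifr* and -0.35 to 0.067 for *Stat3*.

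No paired analysis was possible because the cultures are numbered 1 to 16 across the groups and share no numbers, and the labels name no shared animals, litter or day. At the depth of these libraries *Il6* and *Lif* rest on few reads, and the values of short isoforms depend on how overlapping reads were divided. The protein-coding setting and those without cultures 12 and 16 or 4, 8, 12 and 16 were chosen after seeing the data.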
